A study of Rattus norvegicus with 8 samples.

Results

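The rat array held 86 genes, of 26334 in all, whose names mark them as nuclear-encoded subunits of the mitochondrial respiratory chain or as relatives by name. They were chosen by the first letters of the gene name alone: Ndufa, Ndufb, Ndufc, Ndufs and Ndufv for complex I, Sdha to Sdhd for complex II, Uqcr for complex III, the Cox4 to Cox8 families for complex IV and Atp5 for complex V. By this rule, 35 genes belonged to complex I, 4 to complex II, 8 to complex III, 15 to complex IV and 15 to complex V. The names also took in 6 assembly factors of complex I (the Ndufaf genes, which help to build the complex and are no part of it), 2 genes that are no subunit (Atp5s and Atp5sl) and 1 pseudogene (Cox6c-ps1). These 86 genes had 108 probes in 243 spots.

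Complexes I and II take electrons from NADH and succinate and pass them to coenzyme Q, complex III passes them on to cytochrome c, and complex IV hands them to oxygen. Complexes I, III and IV pump protons out of the mitochondrial matrix, and complex V, the ATP synthase, makes ATP as the protons return. The retina is known for its high use of oxygen, and the inner segments of photoreceptors and the unmyelinated axons of ganglion cells are rich in mitochondria.

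The samples were retinas of female Lister Hooded rats aged 8 weeks. In the ONC group, a crush of the right optic nerve, 3 mm behind the optic disc, lasted 10 s. In the sham-operated CTR group the nerve was reached the same way and not squeezed, and retinas of both groups were taken 2 weeks after surgery. RNA of 4 CTR and 4 ONC retinas was labelled with a red (Cy5) or green (Cy3) dye and hybridized to 4 Agilent arrays, which gives 8 channels.

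By the labels, each array carried a CTR retina in Cy5 with its ONC counterpart in Cy3, so that dye and condition cannot be told apart. In the study's methods, an array instead held a pair of retinas from 1 group, and the dyes given there match the labels for CTR2, CTR4, ONC1 and ONC3 alone. Channels are named here as they are labelled. Of 17 marker genes of retinal ganglion cells, the cells that crush of the nerve is known to kill, 14 were measured after the spot filter, and Pou4f1, Pou4f3 and Nrn1 were not. The median over these 14 of the log2 level minus the gene's mean over the 8 channels was -1.39, 0.96, -0.90 and -0.67 across CTR1 to CTR4 and 0.91, 1.09, 1.13 and -1.02 across ONC1 to ONC4. The markers were thus high in 3 channels labelled ONC and in CTR2 and low in the other channels, and 13 of 14 had a higher mean in the channels labelled ONC. The 1 marker called was Isl1, which also marks bipolar cells, higher at 0.64 ± 0.08 (adjusted p = 0.0418 without and 0.0285 with the block, limma; 0.00839 to 0.384 over the alternatives); its adjusted p was 0.0823, 0.0680, 0.143 and 0.0865 without CTR1 to CTR4 in turn and 0.174, 0.178 and 0.0764 without ONC1, ONC3 and ONC4, so that it was not called there. Their summed level was 4.34, 5.74, 4.60 and 4.95 on the log2 scale across CTR1 to CTR4 and 5.92, 5.91, 5.95 and 4.62 across ONC1 to ONC4. The marker with the highest mean signal was Stmn2, at 2.67, 3.56, 2.80 and 3.31 across CTR1 to CTR4 and 3.39, 3.59, 3.24 and 2.74 across ONC1 to ONC4, and its fold change ran from 0.0186 (without CTR1) to 0.32 (without ONC4) with 1 channel left out. In whole retina, fewer cells of a type and less RNA per cell cannot be told apart. Whether channels were exchanged was not tested, and no channel was moved to another group.

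The spots of the respiratory chain genes stood far above the local background. Their median foreground was 359.7, 536.4, 397.0 and 389.8 times the local background across CTR1 to CTR4 and 485.3, 833.5, 517.6 and 307.4 times across ONC1 to ONC4. Over all spots the ratio lay between 8.1 and 17.0, and no spot of the arrays was saturated in any channel. Spots had to be free of outlier flags and to reach 2 times the background in all 8 channels, which kept 80 of the 86 genes, 97 of their probes and 209 of their spots. The 80 comprised 34 genes of complex I, 4 of complex II, 7 of complex III, 14 of complex IV, 13 of complex V, the 6 assembly factors and the 2 genes that are no subunit.

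Genes were left out for different reasons. Atp5a1, a core subunit of complex V, had a spot whose background was marked uneven in CTR4, Atp5e in CTR4 and ONC4, and Uqcrc1, a core subunit of complex III, in CTR1 and ONC1. Cox6c-ps1 had a non-uniform spot in CTR4 and ONC4 and a dim spot. Cox8c, known as a testis form of a complex IV subunit, was not well above background in any of the 8 channels, where its spot lay between 1.10 and 2.43 times the background.

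The comparison of ONC with CTR channels asks whether the transcripts of the respiratory chain differ between channels with these labels. Because the ganglion cell markers were high in CTR2 and low in ONC4, no difference is read here as an effect of crush. Levels are log2 normalized intensities, with 0 at the median of all genes in a channel, and a fold change is the mean of the 4 ONC channels minus the mean of the 4 CTR channels, with its standard error. No respiratory chain gene was called: 0 of 80 had an adjusted p under 0.05 in limma, where the share over all 16307 genes was 0.497% (81 genes, 38 higher and 43 lower in ONC). At an unadjusted p under 0.05, 15 of the 80 passed, against 18.6% of all genes. The lowest adjusted p among the 80 was 0.0883, for Ndufa7. The test of the study's methods (unequal variances, on linear values, at p under 0.05) took in 14 of the 80, against 17.0% of all genes, and after Benjamini-Hochberg adjustment 0 of the 80 and 1 of all genes. Adding the fold threshold of the methods left 3 of the 80 (Cox7a2, Ndufb5 and Uqcrb, all higher in ONC), against 3.29% of all genes. The groups did not overlap in 16 of the 80, against 12.7% of all genes.

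The fold changes of the 80 genes lay on both sides of 0, with 43 above and 37 below, and reached from -0.46 for Ndufs8 (-0.23 without ONC1 and -0.78 without CTR1) to 0.42 for Ndufb10. Their median was 0.027, beside -0.0133 over all genes. The middle of the list lay between -0.0708 and 0.1271 (quartiles), beside -0.154 and 0.126 over all genes. This median turned to -0.1194 when channels were scaled to their median without loess, while that of all genes moved to 0.073, so no direction is given for the list. With 1 channel left out it ran from 0.0056 (without ONC4) to 0.0386 (without ONC1). Loess within an array centres the difference between its dyes, by the labels ONC against CTR, near 0 at each intensity. A median near 0 and a balance of signs are thus in part set by this step. The spread among channels of 1 group was small in these genes: the median SD within groups was 0.11 on the log2 scale, against 0.18 over all genes. The range over the 8 channels ran from 0.16 to 1.62, with a median of 0.41, beside 0.57 over all genes.

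**Figure D1:**
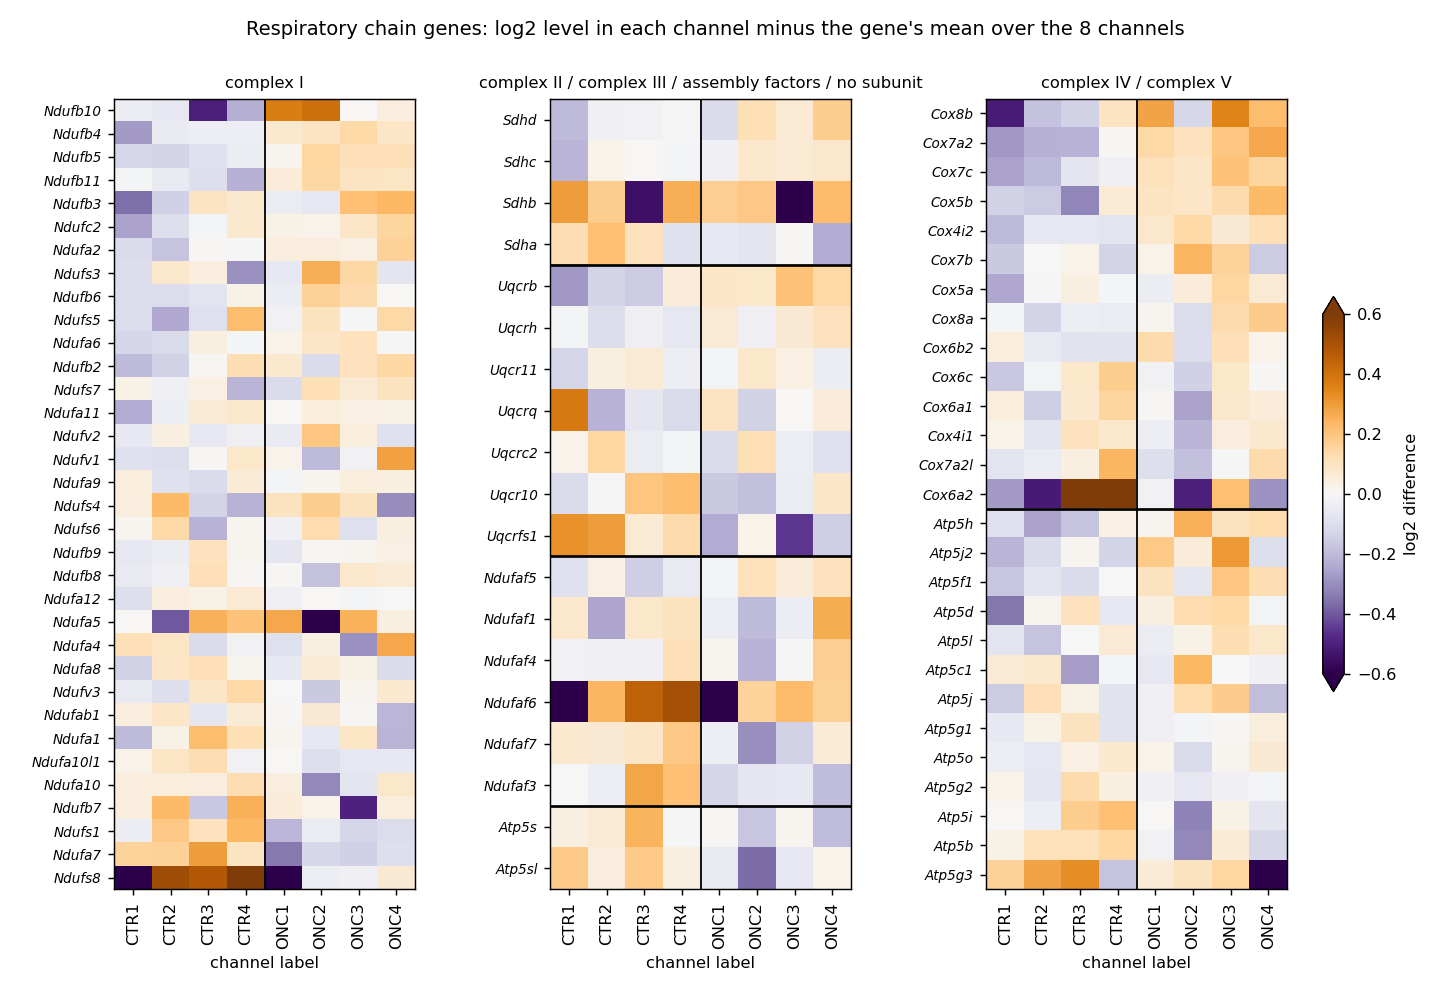
Log2 level of 80 respiratory chain genes (rows) in each of the 8 channels (columns) minus the gene's mean over the channels, in panels by complex and sorted within a complex by fold change. Colours are limited to 0.6 in either direction; rows such as Ndufs8, Ndufaf6 and Sdhb, each with 1 spot, have dark cells in both channels of 1 array.

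The complexes were compared by the median fold change of their genes and by the median level in each channel. The median fold change was 0.0399 over 34 genes of complex I, 0.0009 over 4 of complex II, 0.0094 over 7 of complex III, 0.1132 over 14 of complex IV and 0.045 over 13 of complex V. Under median scaling without loess these became -0.1171, -0.0801, -0.1719, -0.0079 and -0.1822 in the same order, so every complex was below 0 there. Complex IV had the highest median of the 5 under both. Without ONC3 it did not, with complex II at 0.1092 and complex IV at 0.085. In complex IV, the median over its genes of the level minus the gene's mean was -0.16, -0.10, -0.0042 and 0.03 across CTR1 to CTR4 and 0.02, -0.10, 0.13 and 0.10 across ONC1 to ONC4. ONC2 lay with CTR2 at the low end, so the groups overlapped. The median difference of ONC and CTR on the same array was 0.20, 0.04, 0.13 and 0.09 for complex IV on arrays 1 to 4. In complex I these differences were 0.06, 0.0070, 0.03 and -0.02, which leaves no common sign. In complex V they were 0.03, 0.0074, 0.03 and -0.0058, and in complex III -0.05, 0.04, 0.01 and -0.0042. Complex II, with 4 genes, had -0.02, 0.03, -0.02 and 0.03. With 1 channel left out, the median fold change ran from 0.0266 to 0.052 for complex I, -0.0438 to 0.1092 for II, -0.0269 to 0.0104 for III, 0.085 to 0.1362 for IV and 0.0007 to 0.0848 for V. With the other uses of the spot flags, which were chosen after seeing the data, it ran from 0.0083 to 0.0419 for complex I, -0.0076 to -0.0007 for II, -0.0342 to 0.0057 for III, 0.1111 to 0.1514 for IV and 0.0036 to 0.0637 for V. No complex was tested as a group.

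**Figure D2:**
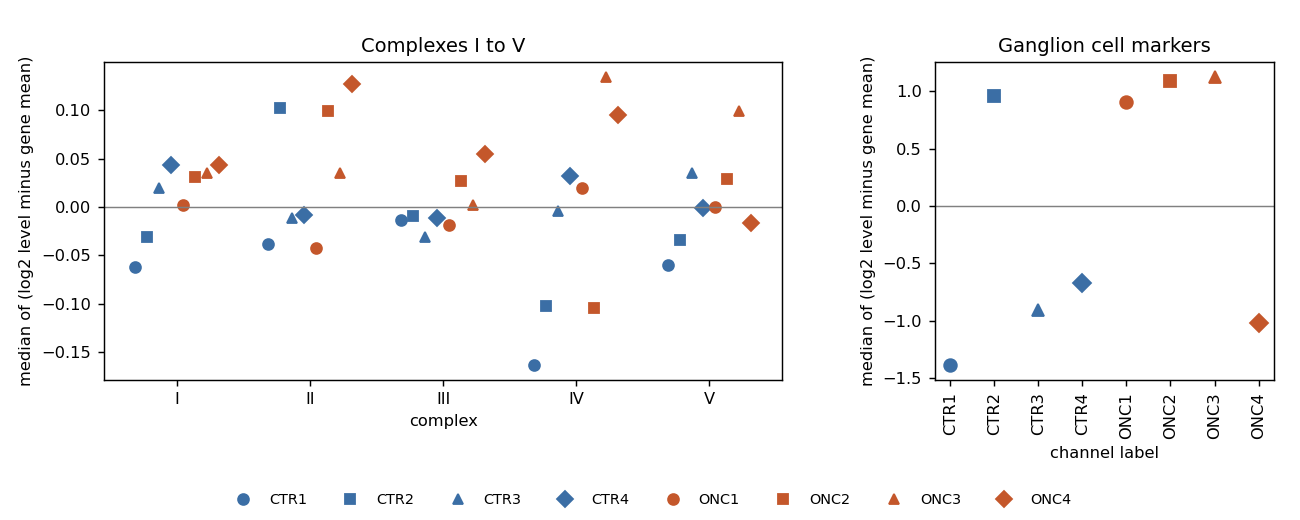
Median over the genes of complexes I to V (left) and of 14 ganglion cell markers (right) of the log2 level minus the gene's mean, 1 point per channel, with CTR in blue and ONC in orange; the axes differ in scale. The complexes stay between -0.1635 and 0.1347, with CTR and ONC points intermixed, while the markers run from -1.39 to 1.13 with CTR2 beside ONC1 to ONC3.

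The respiratory chain genes were compared between the channels of an array, with genes of wide array steps, such as Ndufs8 and Ndufaf6 on array 1, kept in. Correlations without these genes were not computed. After removing each group's mean, the respiratory chain genes correlated across genes between the CTR and ONC channels of an array at 0.67, 0.72, 0.82 and 0.48 on arrays 1 to 4, where all genes gave 0.15, 0.55, 0.40 and 0.49; genes are not independent replicates. Over all genes, CTR1 correlated more closely with an ONC channel of another array than with ONC1, while CTR2, CTR3 and CTR4 were closest to the ONC channel of their own array. ONC1 and ONC3 were the most alike of all 28 pairs of channels, with a scaled median absolute difference of 0.1118 on the log2 scale, where the other pairs lay between 0.2283 and 0.3976. Whether they are independent retinas was not tested, and the standard errors take all 4 channels of a group as independent. With the array as a block in limma, 5 of the 80 genes were called, 2 higher and 3 lower, against 7.69% of all genes (1254 of 16307, 502 higher and 752 lower). ONC was above CTR on all 4 arrays for 27 of the 80 genes and below on all 4 for 17, beside 2970 and 3456 of the 16307.

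The 5 genes called with the array as a block were Ndufb10 and Cox7a2, higher in ONC, and Ndufa7, Uqcrfs1 and Ndufs8, lower. They belong to complexes I, III and IV, and without the block none of them was called after loess within arrays. Under median scaling without loess, also with no block, Ndufa7 and Uqcrfs1 were called (adjusted p = 0.0248 and 0.0205) and the other 3 were not.

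Ndufb10, an accessory subunit in the membrane arm of complex I, had a level of 4.12, 4.10, 3.66 and 3.94 across CTR1 to CTR4 and 4.54, 4.57, 4.17 and 4.21 across ONC1 to ONC4. Every ONC channel was above every CTR channel, and arrays 3 and 4 were lower than arrays 1 and 2 in both dyes. The Ndufb10 fold change was 0.42 ± 0.14 (adjusted p = 0.164 without and 0.0336 with the block, limma; 0.0336 to 0.7 over the alternatives). Its 2 probes gave 0.35 and 0.48, and it was at 0.26 without loess.

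Cox7a2, the widely expressed form of a small complex IV subunit, had a level of 4.21, 4.26, 4.27 and 4.49 across CTR1 to CTR4 and 4.62, 4.59, 4.68 and 4.76 across ONC1 to ONC4. All ONC channels lay above all CTR channels, with the smallest gap between CTR4 and ONC2. The Cox7a2 fold change was 0.36 ± 0.09 (adjusted p = 0.0898 without and 0.037 with the block, limma; 0.037 to 0.477 over the alternatives). Its 2 probes, at 0.36 and 0.35, differed by 0.0151, the smallest difference of any respiratory chain gene with several probes. Without loess its fold change was 0.18. Its linear fold of 1.28 passed the gene's threshold of 1.23 under the methods' criterion.

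Ndufa7, an accessory subunit of complex I, had a level of 0.38, 0.39, 0.52 and 0.32 across CTR1 to CTR4 and -0.12, 0.10, 0.08 and 0.13 across ONC1 to ONC4. All ONC channels were below all CTR channels, with ONC1 the lowest. The Ndufa7 fold change was -0.36 ± 0.09 (adjusted p = 0.0883 without and 0.0476 with the block, limma; 0.0248 to 0.49 over the alternatives).

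Uqcrfs1, the Rieske iron-sulfur protein of complex III, had a level of 3.94, 3.91, 3.68 and 3.75 across CTR1 to CTR4 and 3.38, 3.64, 3.16 and 3.47 across ONC1 to ONC4. The groups did not overlap: the highest ONC channel, ONC2, lay just under the lowest CTR channel, CTR3. The Uqcrfs1 fold change was -0.41 ± 0.12 (adjusted p = 0.121 without and 0.0405 with the block, limma; 0.0205 to 0.725 over the alternatives).

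Ndufs8, a core iron-sulfur subunit of complex I, had a level of 0.49, 1.74, 1.70 and 1.85 across CTR1 to CTR4 and 0.30, 1.18, 1.19 and 1.28 across ONC1 to ONC4. Both channels of array 1 were far below the rest, so the groups overlapped, but ONC was below CTR on each of the 4 arrays. The Ndufs8 fold change was -0.46 ± 0.33 (adjusted p = 0.51 without and 0.0391 with the block, limma; 0.0391 to 1 over the alternatives). It was -0.78 without CTR1 and -0.23 without ONC1. Its 1 spot had a foreground of 1849.3 in CTR1 and 1091.1 in ONC1, while the foreground ran from 4025.5 to 6156.8 for CTR and from 1258.3 to 3220.7 for ONC on the other arrays.

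**Figure D3:**
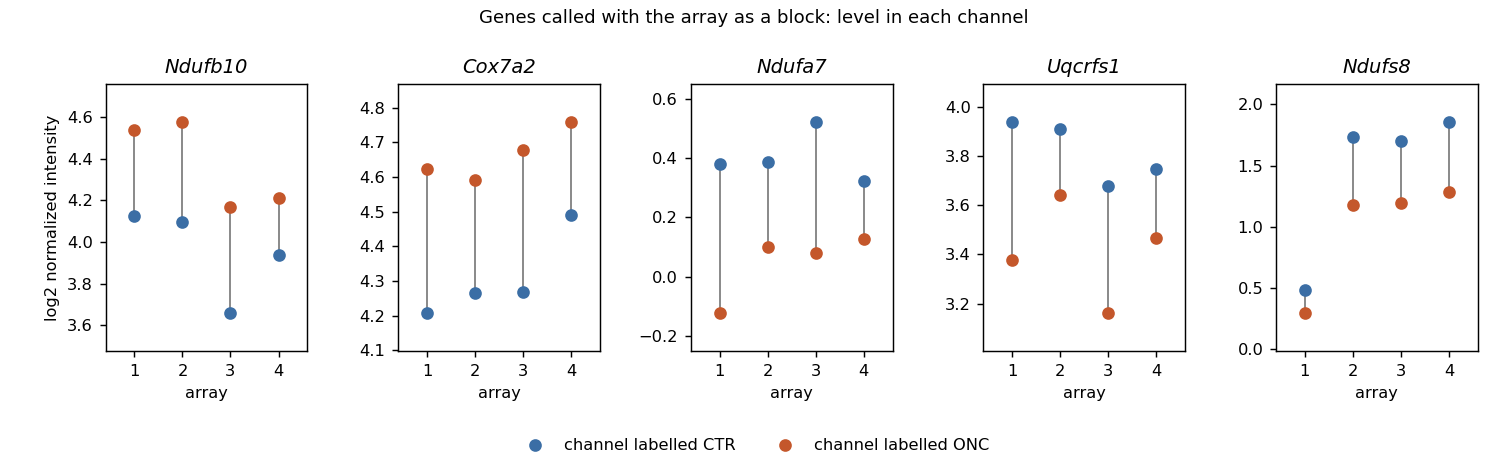
Log2 normalized intensity of the 5 genes called with the array as a block, by array, with the CTR (blue) and ONC (orange) channel of an array joined by a line. ONC lies above CTR on all 4 arrays for Ndufb10 and Cox7a2 and below on all 4 for Ndufa7, Uqcrfs1 and Ndufs8.

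The promoters of the respiratory chain genes were searched for 3 motifs of factors known to act on nuclear genes of mitochondria, on both strands: GCATGCGC (NRF-1), CCGGAAG (ETS factors such as GABP) and AAGATGGC (YY1). Promoters were 300 bases long, 250 before and 50 after the start of the gene, from RefSeq on the build GRCr8. All 86 names matched the reference (69 by symbol and 17 by synonym) and 73 of them had a promoter in the table. NRF-1 letters were found in 11 of the 73 (15.1%), ETS letters in 20 (27.4%) and YY1 letters in 14 (19.2%), while the shares over 27457 genes with a promoter were 2.77%, 9.63% and 3.62%. At least 1 of the 3 was in 34 of the 73 (46.6%), beside 14.7% over all, and an ETS match overlapped another motif 2 times among all promoters. By complex, at least 1 motif was found in 12 of 31 genes of complex I, 3 of 4 of complex II, 4 of 6 of complex III, 5 of 12 of complex IV and 7 of 14 of complex V. A match is a description of the letters and shows no binding.

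Of the 5 genes called with the block, Cox7a2 and Ndufs8, which differ in the direction of their fold change, held 1 ETS match each, starting at base -43 and at base -12 from the gene's start, and the promoters of Ndufb10, Ndufa7 and Uqcrfs1 held none of the 3 motifs. These promoters are printed because they carry the motif in genes called in opposite directions, and those of Atp5i and Ndufa6 because they are the 2 members with all 3 motifs; capitals mark the matches, and on the strand printed the letters may be those of the opposite strand (CTTCCGG, GCGCATGC or GCCATCTT).
Cox7a2 (chr8:89601100-89601399, minus strand, GRCr8): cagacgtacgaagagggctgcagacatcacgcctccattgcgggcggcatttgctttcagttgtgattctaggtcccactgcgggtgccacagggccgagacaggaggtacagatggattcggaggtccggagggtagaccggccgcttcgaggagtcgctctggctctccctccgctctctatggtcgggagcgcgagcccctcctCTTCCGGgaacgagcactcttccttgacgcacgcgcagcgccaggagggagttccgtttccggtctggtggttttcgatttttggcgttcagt
Ndufs8 (chr1:210573649-210573948, minus strand, GRCr8): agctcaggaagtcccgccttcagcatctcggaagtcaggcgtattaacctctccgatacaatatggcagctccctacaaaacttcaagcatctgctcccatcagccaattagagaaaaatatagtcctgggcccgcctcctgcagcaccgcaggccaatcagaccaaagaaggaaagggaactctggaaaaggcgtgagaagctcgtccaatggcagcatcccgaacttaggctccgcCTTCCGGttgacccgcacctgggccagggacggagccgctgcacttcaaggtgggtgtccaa
Atp5i (chr14:1464610-1464909, plus strand, GRCr8): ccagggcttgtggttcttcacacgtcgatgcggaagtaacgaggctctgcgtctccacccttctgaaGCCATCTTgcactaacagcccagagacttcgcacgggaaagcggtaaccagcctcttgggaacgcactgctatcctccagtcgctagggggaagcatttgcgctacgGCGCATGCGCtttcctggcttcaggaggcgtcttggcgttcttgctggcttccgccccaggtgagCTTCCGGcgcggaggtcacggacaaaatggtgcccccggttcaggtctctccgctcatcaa
Ndufa6 (chr7:115750268-115750567, minus strand, GRCr8): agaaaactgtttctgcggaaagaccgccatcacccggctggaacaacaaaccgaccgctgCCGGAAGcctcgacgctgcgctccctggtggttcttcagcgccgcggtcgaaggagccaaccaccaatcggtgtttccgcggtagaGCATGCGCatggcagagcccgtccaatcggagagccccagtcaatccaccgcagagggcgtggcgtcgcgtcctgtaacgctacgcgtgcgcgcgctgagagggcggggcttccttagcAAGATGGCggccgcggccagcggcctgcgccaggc
In Atp5i, the run of 10 capitals joins an NRF-1 match on either strand. The log2 fold changes were -0.18 for Atp5i and 0.11 for Ndufa6, and neither gene was called with or without the block. Under median scaling without loess, Atp5i was called at -0.61 (adjusted p = 0.0112) and Ndufa6 turned to -0.12, and without ONC2 Atp5i was at -0.10.

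Within complex I, fold changes were above 0 for 19 genes and below for 15, and 6 of 34 had an unadjusted p under 0.05, against 18.6% of all genes. After Ndufb10, the next highest was Ndufb4, an accessory subunit, at 4.71, 4.94, 4.95 and 4.95 across CTR1 to CTR4 and 5.06, 5.09, 5.12 and 5.07 across ONC1 to ONC4. The CTR1 channel was low and the groups did not overlap. The Ndufb4 fold change was 0.20 ± 0.08 (adjusted p = 0.251). It turned to -0.03 under median scaling without loess.

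The core subunits of complex I, which carry the flavin and the iron-sulfur centres, were taken as a set. Ndufs1, an iron-sulfur subunit, had a level of 3.48, 3.71, 3.62 and 3.75 across CTR1 to CTR4 and 3.31, 3.47, 3.39 and 3.41 across ONC1 to ONC4. Every ONC channel was below all CTR channels, by 0.0027 at the closest pair (ONC2 and CTR1), and the gene was called under median scaling without loess (-0.34, adjusted p = 0.0356). The Ndufs1 fold change was -0.24 ± 0.09 (adjusted p = 0.186 without and 0.0683 with the block; 0.0356 to 0.919 over the alternatives). The remaining measured core subunits overlapped between groups, as Ndufs8 did, with fold changes of 0.13 for Ndufs3, 0.09 for Ndufs7, 0.04 for Ndufv1 and 0.06 for Ndufv2, each with a standard error of 0.09 to 0.12. With 1 channel left out they ran from 0.06 (without CTR4) to 0.18 (without CTR2) for Ndufs3, from 0.0301 (without CTR4) to 0.14 (without ONC1) for Ndufs7, from -0.0433 (without ONC4) to 0.12 (without ONC2) for Ndufv1 and from -0.0003 (without ONC2) to 0.0932 (without ONC4) for Ndufv2. Without loess they were at 0.0681, 0.0037, -0.20 and -0.11 in the same order. Ndufv1, which binds NADH, and Ndufs7 turned below 0 in the processed signals of the scanner software, at -0.04 and -0.12.

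The 6 assembly factors of complex I had a median fold change of -0.0345, with 5 of 6 below 0. The groups did not overlap for Ndufaf3 and Ndufaf7 (12.7% over all genes), with fold changes of -0.23 ± 0.10 (adjusted p = 0.25) and -0.21 ± 0.09 (adjusted p = 0.28). The 2 probes of Ndufaf7 gave -0.37 and -0.0454. Ndufaf6 had the widest range of all 80 genes, at -0.25, 1.09, 1.30 and 1.37 across CTR1 to CTR4 and 0.21, 1.01, 1.08 and 1.02 across ONC1 to ONC4. Both channels of array 1 were low, and the means of the other 3 arrays lay within 0.14 of each other. The Ndufaf6 fold change was -0.05 ± 0.36 (adjusted p = 0.961), and it turned above 0 when either CTR2, CTR3, CTR4 or ONC1 was left out, with a range from -0.42 (without CTR1) to 0.16 (without ONC1).

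Complex II has 4 subunits, all measured. Sdha, the flavoprotein that oxidizes succinate, had a level of 4.11, 4.21, 4.09 and 3.90 across CTR1 to CTR4 and 3.93, 3.92, 3.995 and 3.75 across ONC1 to ONC4. ONC was below CTR on all 4 arrays, but CTR4 lay among the ONC channels. The Sdha fold change was -0.18 ± 0.09 (adjusted p = 0.355), -0.30 without loess, and 0.0017 in the processed signals of the scanner software.

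Sdhb, the iron-sulfur subunit, had a level of 3.81, 3.69, 2.97 and 3.78 across CTR1 to CTR4 and 3.69, 3.71, 2.74 and 3.74 across ONC1 to ONC4. Both channels of array 3 were low, and the other 6 did not separate by group. The Sdhb fold change was -0.10 ± 0.27 (adjusted p = 0.891), and it ran from -0.29 (without CTR3) to 0.15 (without ONC3) with 1 channel left out. The membrane anchors Sdhc and Sdhd had fold changes of 0.10 ± 0.08 and 0.13 ± 0.09 (adjusted p = 0.583 and 0.514), with ONC above CTR on all 4 arrays for both genes and array 1 the lowest. Without CTR1, Sdhc was at 0.0433 and Sdhd at 0.0804. Median scaling without loess gave -0.19 for Sdhb, 0.0301 for Sdhc and 0.0409 for Sdhd. Sdhd was at -0.0087 when only CTR2, CTR4, ONC1 and ONC3 were used.

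Complex III had its highest fold change in Uqcrb, a small subunit that binds quinone, at 2.36, 2.51, 2.48 and 2.70 across CTR1 to CTR4 and 2.72, 2.72, 2.85 and 2.78 across ONC1 to ONC4. The ONC channels were all above all CTR channels, by 0.03 at the closest pair (ONC2 and CTR4). The Uqcrb fold change was 0.26 ± 0.09 (adjusted p = 0.181 without and 0.0858 with the block; 0.0738 to 0.819 over the alternatives). Without loess it was at 0.12. Its probes did not give the same size: 7 spots of 1 probe gave 0.06 and 1 spot of the other gave 0.45. The probe with 7 spots was far dimmer, at a level of -0.50 to -0.16, where the other stood at 5.21 to 5.93. The Uqcrb level given above is the mean of both probes. The hinge protein Uqcrh was at 0.10 ± 0.07 and became -0.19 under median scaling without loess. Uqcr10 had -0.15 ± 0.11 (adjusted p = 0.503; -0.50 and called without loess, adjusted p = 0.0189) and the core protein Uqcrc2 -0.05 ± 0.09 (adjusted p = 0.798), both with overlapping groups. Uqcrc2 ran from -0.10 (without ONC2) to -0.0143 (without CTR2) with 1 channel left out and was at -0.17 without loess.

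Complex IV is the complex with several forms of the same subunit. Cox4i1, the form found in most tissues, had a level of 6.52, 6.42, 6.60 and 6.57 across CTR1 to CTR4 and 6.46, 6.28, 6.54 and 6.57 across ONC1 to ONC4. The groups overlapped, with ONC2 the lowest. Cox4i2, a form known from lung and induced by low oxygen, had a level of 3.07, 3.20, 3.20 and 3.19 across CTR1 to CTR4 and 3.34, 3.404, 3.34 and 3.39 across ONC1 to ONC4. Without exception, ONC channels were above all CTR channels, and CTR1 was the lowest of the 8. The fold changes were -0.07 ± 0.09 (adjusted p = 0.749) for Cox4i1 and 0.20 ± 0.07 (adjusted p = 0.189; 0.0931 with the block and 0.073 to 0.775 over the alternatives) for Cox4i2, and the difference between the forms was not tested. Median scaling without loess brought Cox4i2 to 0.12 and Cox4i1 to -0.46 (adjusted p = 0.0144), where it was called, and with 1 channel left out it ran from -0.10 (without ONC4) to -0.0077 (without ONC2).

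Cox6a2 and Cox8b are forms known from heart and skeletal muscle. Cox6a2 had a level of -3.58, -3.82, -2.71 and -2.52 across CTR1 to CTR4 and -3.33, -3.81, -3.09 and -3.59 across ONC1 to ONC4. CTR3 and CTR4 were the highest channels and CTR2 the lowest, so the groups overlapped over their whole range. Cox8b had a level of -4.07, -3.74, -3.70 and -3.46 across CTR1 to CTR4 and -3.28, -3.69, -3.21 and -3.34 across ONC1 to ONC4. ONC1, ONC3 and ONC4 were above all CTR channels and ONC2 was not. The fold changes were -0.30 ± 0.30 (adjusted p = 0.647) for Cox6a2 and 0.37 ± 0.15 (adjusted p = 0.241) for Cox8b. With normexp background correction they were -0.17 and 0.23. Under median scaling without loess they were 0.24 and 1.001, and Cox8b was then called. Cox6a2 was at -0.52 without CTR2, -0.15 without CTR3, -0.0848 without CTR4 and -0.18 without ONC2. The foreground of the Cox6a2 spot was 2.7 to 4.5 times the background in the CTR channels and 3.5 to 5.4 times in the ONC channels. Neither Cox6a2 nor Cox8b was kept when spots had to be well above background, so both lie near it.

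The common forms Cox6a1 and Cox8a had fold changes of -0.06 ± 0.11 and 0.11 ± 0.09 (adjusted p = 0.821 and 0.545). Under median scaling without loess both were called and lower in ONC, at -0.48 and -0.29, so Cox8a turned. With 1 channel left out, they ran from -0.12 (without CTR2) to 0.0145 (without ONC2) for Cox6a1 and from 0.0709 (without ONC4) to 0.17 (without ONC2) for Cox8a. Cox6b2 and Cox7a2l had 0.08 ± 0.08 and -0.08 ± 0.10 (adjusted p = 0.655 and 0.748), and ran from 0.0512 (without ONC1) to 0.13 (without ONC2) and from -0.14 (without ONC4) to -0.0113 (without CTR4) with 1 channel left out, with 0.0143 and -0.32 without loess. The array has no gene under the names Cox6b1, Cox7a1 or Ndufa4l2. Ndufa4, a gene named for complex I whose protein is now placed with complex IV, was at -0.04 ± 0.13 (adjusted p = 0.915) and at 0.24 in the processed signals, at -0.37 without loess, and it ran from -0.13 (without ONC4) to 0.056 (without ONC3) with 1 channel left out.

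Cox5b, a nuclear subunit that binds zinc, had a level of 4.88, 4.86, 4.70 and 5.08 across CTR1 to CTR4 and 5.11, 5.10, 5.15 and 5.25 across ONC1 to ONC4. The 4 ONC channels were above all CTR channels, with CTR3 the lowest. The Cox5b fold change was 0.27 ± 0.10 (adjusted p = 0.175 without and 0.0685 with the block; 0.0685 to 0.739 over the alternatives), and 0.052 without loess. Its partner Cox5a had 0.11 ± 0.09 (adjusted p = 0.556), with overlapping groups, -0.07 under median scaling without loess, and 0.0502 without CTR1.

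In complex V, fold changes were above 0 for 8 genes and below for 5, and the groups overlapped for all 13, where 12.7% of all genes did not overlap. Atp5b, the catalytic beta subunit, had a level of 3.75, 3.83, 3.84 and 3.87 across CTR1 to CTR4 and 3.71, 3.41, 3.79 and 3.5999 across ONC1 to ONC4. ONC was below CTR on all 4 arrays, with ONC2 the lowest, and ONC3 lay among the CTR channels. The Atp5b fold change was -0.20 ± 0.10 (adjusted p = 0.314), -0.13 without ONC2 and -0.30 without loess.

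Atp5h, a subunit of the stalk, had the highest fold change of complex V, at 4.65, 4.49, 4.57 and 4.78 across CTR1 to CTR4 and 4.75, 4.998, 4.84 and 4.87 across ONC1 to ONC4. Only CTR4 lay among the ONC channels. The Atp5h fold change was 0.24 ± 0.09 (adjusted p = 0.21), and 0.0514 under median scaling without loess. Atp5j2, in the membrane part, followed with 0.22 ± 0.10 (adjusted p = 0.298), which became -0.12 under median scaling without loess. The gamma subunit Atp5c1, in the central shaft, was at 0.07 ± 0.11 (adjusted p = 0.777), at -0.0356 without loess, and it ran from -0.0039 (without CTR3) to 0.11 (without CTR2) with 1 channel left out.

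The genes Atp5g1, Atp5g2 and Atp5g3 encode the same mature protein, subunit c, which forms the turning ring in the membrane. Atp5g3 had a level of 2.50, 2.62, 2.67 and 2.16 across CTR1 to CTR4 and 2.40, 2.44, 2.49 and 1.43 across ONC1 to ONC4. ONC4 was far below all other channels and CTR4 the next lowest, so array 4 was low in both dyes. The Atp5g3 fold change was -0.30 ± 0.24 (adjusted p = 0.55), -0.0470 without ONC4, and 0.05 when only CTR2, CTR4, ONC1 and ONC3 were used. Atp5g1 and Atp5g2 had 0.01 ± 0.08 and -0.06 ± 0.08 (adjusted p = 0.979 and 0.705), with overlapping groups, and ran from -0.0205 (without CTR4) to 0.0398 (without CTR3) and from -0.0984 (without CTR2) to -0.0313 (without CTR3) with 1 channel left out. Under median scaling without loess Atp5g1 turned to -0.26, and Atp5g2 was called at -0.37 (adjusted p = 0.0169).

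**Figure D4:**
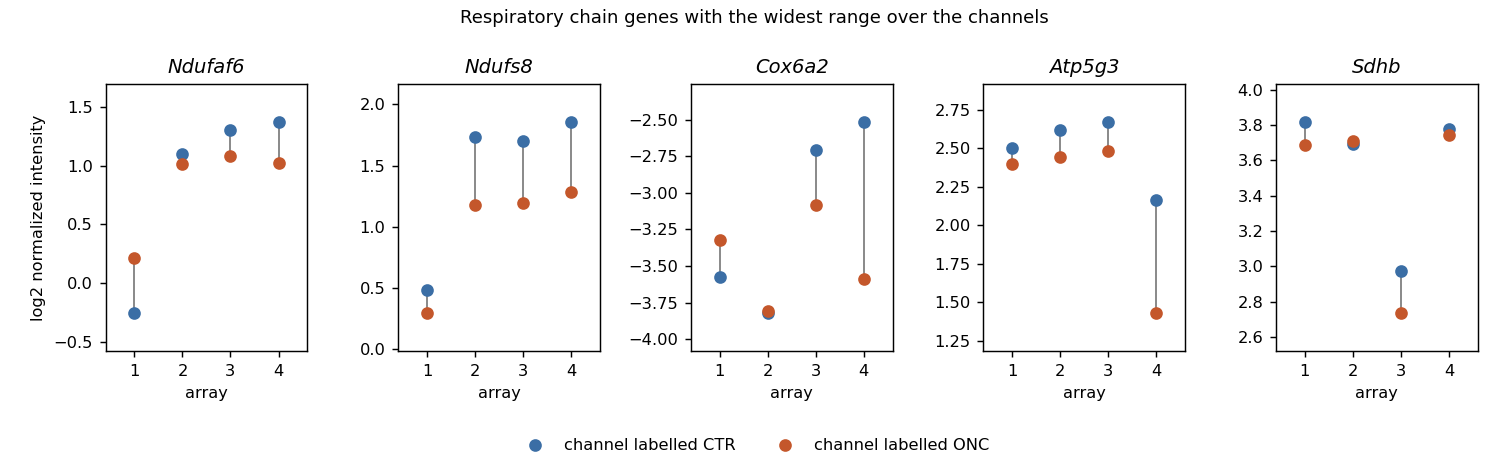
Log2 normalized intensity of the 5 respiratory chain genes with the widest range over the 8 channels, by array, CTR in blue and ONC in orange. In Ndufaf6, Ndufs8 and Sdhb the widest step is between 1 array and the others and moves both channels together; in Atp5g3 array 4 is low, more so in ONC4, and in Cox6a2 the levels differ among arrays in both directions.

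The genes with the widest range, Ndufaf6, Ndufs8, Cox6a2, Atp5g3 and Sdhb, each rested on 1 spot. In Ndufaf6 the lower channels, those of array 1, had a mean 1.07 below the next lowest array, while the other 3 arrays stayed within 0.14. In Ndufs8 array 1 lay 1.05 below the next array and the others within 0.12, and in Sdhb array 3 lay 0.85 below and the others within 0.06. In Atp5g3 array 4 lay 0.65 below and the others within 0.13. The cause of these array steps was not tested.

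Where genes had more spots or probes, the spread among these could be read directly. Among 15 probes with at least 5 spots, the median SD of single spots within a channel was 0.19 (0.14 to 0.34). The median SD among channels of a group, taken on the mean over a probe's spots, was 0.10 (0.05 to 0.19). The former is a spread of single spots and the latter of means over spots, so they cannot be set against each other. Of 14 genes with several probes kept, 8 had probes whose fold changes differed in sign, and the median difference between probes was 0.14. The largest was in Ndufab1, the acyl carrier protein of complex I, whose probes gave -0.26 and 0.14, followed by Uqcrb. The Ndufab1 probe that gave -0.26 was far dimmer, at a level of -3.53 to -2.86, where the other stood at 3.49 to 3.92. The Ndufab1 fold change ran from -0.0953 (without ONC2) to -0.0039 (without ONC4) with 1 channel left out and was 0.14 without loess.

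Relative expression variability (REV), the study's own measure of how much a gene varies among the channels of a group, is a coefficient of variation in percent taken at the middle of its interval. Its median over the 80 genes was 15.9% in CTR and 14.0% in ONC, and over all genes 25.1% and 21.7%. By complex, the medians in CTR and ONC were 14.6% and 12.2% for complex I, 17.2% and 14.4% for complex II, 14.7% and 14.9% for complex III, 17.1% and 14.2% for complex IV and 17.9% and 15.2% for complex V. REV was higher in ONC for 31 of the 80 genes and for 6762 of the 16307. Cox6a2 had the highest REV in CTR, at 90.8%, and Atp5g3 the highest in ONC, at 62.2%. No test was made of these medians.

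**Figure D5:**
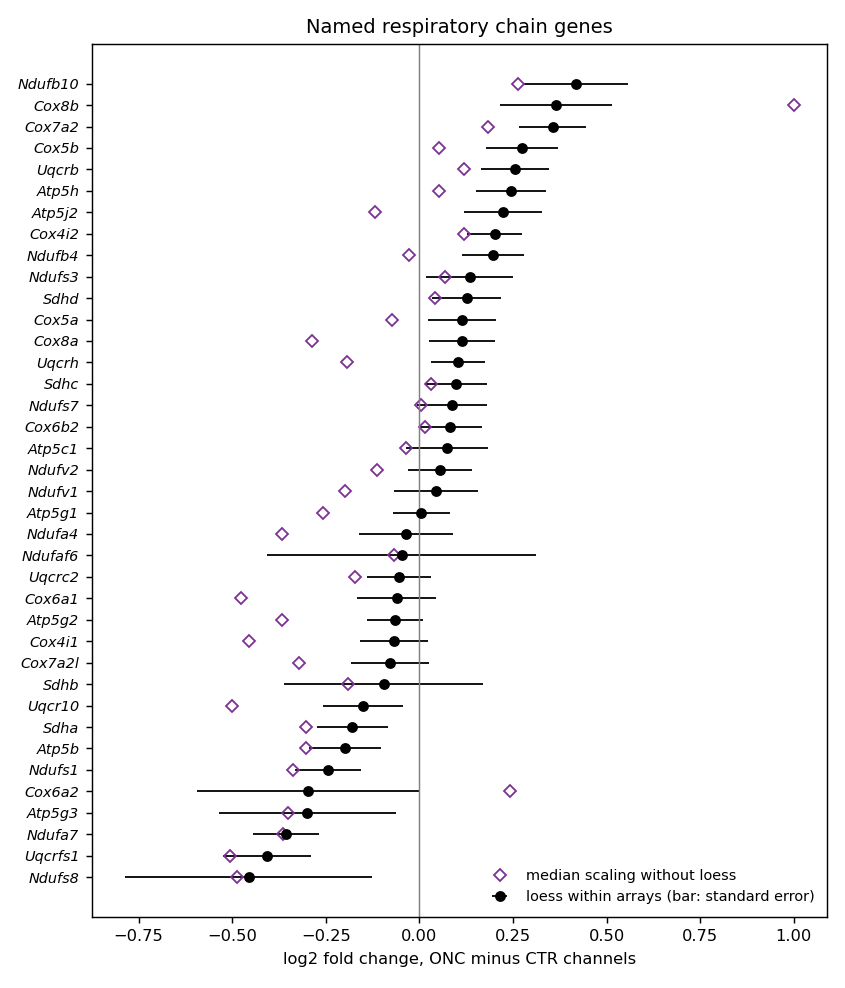
Log2 fold change of ONC against CTR of 38 named respiratory chain genes after loess within arrays (black, bar for the standard error, n = 4 channels a group) and after median scaling without loess (open diamonds). Without loess most genes lie lower, 10 have the other sign, and Cox6a2 and Cox8b lie higher.

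Other genes of mitochondria were taken from lists of 186 genes on the array, of which 178 were measured; 0 of these were called without the block (limma, 53 at an unadjusted p under 0.05, against 18.6% of all genes) and 9 with it, against 7.69% of all genes. Median scaling without loess called 26 of them, against 19.6% of all genes. Among the assembly factors of all complexes, 28 were measured, 8 had an unadjusted p under 0.05 (18.6% over all genes) and the median fold change was -0.0214. Sdhaf3, an assembly factor of complex II, was the highest at 0.49 ± 0.15 (adjusted p = 0.13) and Tmem70, known for the assembly of complex V, the lowest at -0.30 ± 0.09 (adjusted p = 0.127). Ttc19 and Bcs1l, both linked to complex III, were at 0.34 and -0.30, with groups that did not overlap. Without loess, Bcs1l was at -0.0518, and Ttc19 and Sdhaf3 were called at 0.61 and 0.62 (adjusted p = 0.0091 and 0.0218). The 1 assembly factor called with the block was Lyrm7, which acts in the assembly of complex III, at 0.27 ± 0.09 (adjusted p = 0.164 without and 0.0498 with the block; 0.0487 to 0.47 over the alternatives), and it was called without loess too (adjusted p = 0.0487). Of 15 genes for cytochrome c and coenzyme Q, 10 lay above 0, with Pdss2 at 0.28 and Cyc1, the cytochrome c1 of complex III, at 0.22 (-0.0183 without loess), and with Adck4 at -0.23 (-0.15 without ONC4) and Coq9 at -0.17.

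The 17 genes of the tricarboxylic acid cycle, which feeds complexes I and II, had a median fold change of -0.0721, with 11 below 0. Pdhb, a subunit of pyruvate dehydrogenase, had a level of 2.71, 2.82, 2.69 and 2.74 across CTR1 to CTR4 and 2.39, 2.43, 2.45 and 2.45 across ONC1 to ONC4. All of the ONC channels were below all CTR channels. The Pdhb fold change was -0.31 ± 0.07 (adjusted p = 0.0807 without and 0.0435 with the block; 0.0134 to 0.621 over the alternatives), and it was also called with Aquantile and under median scaling without loess. Mdh2 was at -0.37 (-0.42 without loess, where it was called with adjusted p = 0.0408), and Idh3a and Fh at 0.33 and 0.25.

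Among 12 carriers and channels, Slc25a4, the nucleotide carrier that exports ATP from mitochondria, was called with the block, as 7.69% of all genes were. Its level was 5.13, 5.24, 5.06 and 3.95 across CTR1 to CTR4 and 5.61, 5.44, 5.53 and 4.30 across ONC1 to ONC4. Array 4 was low in both dyes and ONC was above CTR on every array. The Slc25a4 fold change was 0.37 ± 0.36 (adjusted p = 0.629 without and 0.0424 with the block; 0.0424 to 1 over the alternatives), and it was 0.0732 without CTR4, 0.24 without ONC1, 0.68 without ONC4 and 0.14 without loess. Slc25a13 was at 0.40 (0.0404 without CTR2 and 0.67 without ONC2), and Slc25a5 and Slc25a11 were at -0.20 and -0.12. Without loess the values were 0.94 for Slc25a13, -0.19 for Slc25a11 and -0.36 for Slc25a5, which was called there (adjusted p = 0.021).

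Of 21 regulators of mitochondrial biogenesis and genes of mitochondrial DNA expression, 4 were called with the block, 1 higher and 3 lower, against 7.69% of all genes (502 higher and 752 lower). Gabpb1, a subunit of GABP, had a level of 1.69, 1.51, 1.60 and 1.45 across CTR1 to CTR4 and 1.96, 1.91, 1.996 and 2.12 across ONC1 to ONC4. Each ONC channel was above all CTR channels. The Gabpb1 fold change was 0.44 ± 0.09 (adjusted p = 0.06 without and 0.0396 with the block; 0.0164 to 0.872 over the alternatives). Ppargc1b, a coactivator of mitochondrial genes, had a level of -0.47, -0.59, -0.29 and -0.65 across CTR1 to CTR4 and -0.91, -1.35, -1.06 and -1.21 across ONC1 to ONC4. ONC channels were all below all CTR channels. The Ppargc1b fold change was -0.63 ± 0.12 (adjusted p = 0.0575 without and 0.029 with the block; 0.0155 to 0.403 over the alternatives). Tefm, which acts in transcription of mitochondrial DNA, was at -0.49 ± 0.10 (adjusted p = 0.0667 without and 0.0457 with the block; 0.0421 to 0.387 over the alternatives), and Ssbp1 at 0.32 (0.20 without CTR2). Gabpa, the other subunit of GABP, was at -0.39 ± 0.07 (adjusted p = 0.0575 without and 0.034 with the block; 0.034 to 0.387 over the alternatives). All 4 were also called without loess (adjusted p = 0.0164 for Gabpb1, 0.0155 for Ppargc1b, 0.0471 for Tefm and 0.0415 for Gabpa).

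Of 17 genes for fusion, fission and cristae, 0 were called with or without the block (limma, 3 at an unadjusted p under 0.05 without it), with Yme1l1 and Oma1 at 0.31 and 0.20 (Oma1 0.12 without ONC4 and 0.32 without CTR4) and Apool and Chchd3 at -0.22 and -0.21. Of 68 genes of the mitochondrial ribosome, 20 had an unadjusted p under 0.05, against 18.6% of all genes, the median fold change was 0.0301, and 2 were called with the block, against 7.69% of all genes. Mrpl15 was one of them, at -0.41 ± 0.11 (adjusted p = 0.112 without and 0.0391 with the block; 0.0391 to 0.6 over the alternatives), with groups that did not overlap, and Mrps36 the other, at 0.29 ± 0.17 (adjusted p = 0.41 without and 0.0496 with the block; 0.0496 to 1 over the alternatives; 0.16 without CTR4). Mrpl15 was also called without loess (adjusted p = 0.0421). Mrpl52 was at -0.36 (-0.23 without ONC2), and Mrps25 and Mrps18c at 0.31 and 0.30.

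The number of genes called over the whole array was itself unsteady. Without CTR2 and ONC4 together, the channels whose ganglion cell markers stood apart from their group, it was 415, and 0 of the 80 were called. It was 0 when any 1 channel other than ONC2 was left out and 38 without ONC2, and 0 respiratory chain genes were called in each of these (limma, 8 to 14 at an unadjusted p under 0.05). The number of arrays limits the precision, and the cause of the changes in the number called was not tested.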

How the data were processed

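RNA of 8 retinas was measured on 4 two-colour Agilent arrays. The authors deposited intensity values for each spot as the scanner software wrote them (Agilent Feature Extraction, version 11.1.19.1 by the labels), with the foreground, the local background, flags and a processed signal. Spots of 42877 that are no controls were kept if they carried no outlier flag of the spot (non-uniformity or population) and no non-uniformity flag of the background, and reached 2 times the background in all 8 channels, which left 27371 spots, 18599 probes and 16307 genes. The methods name local corruption of a spot without the flags that mark it. After 8 combinations had been compared, this one was kept because its numbers of spots, probes and genes equal those of an earlier processing of these data, although the numbers of genes that pass the methods' test and composite criterion do not; calls under a pair of the others had been seen by then, and all are among the alternatives.

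After background subtraction, loess ran within each array and channels were set to a median of 0. Log2 values were then averaged over the spots of a probe and over the probes of a gene name. The test was that of limma 3.58.1 (R 4.3.3), two-sided and unpaired (the methods name a test with unequal variances for the arrays), with Benjamini-Hochberg adjustment over all genes, and a gene was called when its adjusted p lay under 0.05. The pairing was checked: the labels put channels of the same number on 1 array, and their deviations from the group means correlated across all genes at 0.15, 0.55, 0.40 and 0.49, so values with the array as a block are given too. REV and the composite criterion followed the equations of the methods. The REV of a group uses the chi-square interval between 0.025 and 0.975. The limma fit without the block was checked on simulated data, and REV, the composite criterion and the fit with the block were not. Python 3.11.15, numpy 2.4.6, pandas 2.3.3 and matplotlib 3.10.9 served for tables, motifs and figures.

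Genes were named by rule: in each complex the 2 highest and 2 lowest fold changes, a set of core subunits, sets of isoforms, the 5 genes with the widest range over the channels, the genes called with the block alone (5 at most), and in each other list the 2 highest and 2 lowest fold changes. Called genes would have been named first, but there were none. The remaining genes named (Ndufaf3, Ndufaf7, Ndufb5, Ndufab1, Atp5i, Ndufa6, Lyrm7, Gabpa, Mrps36, Polg, Stmn2 and the other markers) were chosen after their values were seen. The members and all lists, markers included, were chosen with earlier results of these data known. Among the marker lists beside that of ganglion cells, 1 of 8 bipolar genes was called (Isl1, higher) and 0 in the lists of rods (8 genes measured), cones (8), amacrine cells (9), Mueller glia (8), microglia (9), pigment epithelium (4), lens (12), pericytes and endothelium (8), skeletal muscle (7) and red blood cells (4) in limma, where 2, 4, 3, 2, 4, 1, 1, 1, 1 and 0 of them had an unadjusted p under 0.05 (over all genes, 0.497% were called, 18.6% had such a p and 7.69% were called with the block); with the block the calls from cones onward were 3 (Opn1mw, Pde6h, Cngb3), 1 (Slc6a9), 2 (Slc1a3, Vim), 0, 0, 0, 1 (Abcc9), 0 and 0, all lower in ONC. Of the ganglion cell list, 1 of 14 was called (Isl1). Alternatives covered the background correction, spot filters and flags, normalization, choice of probe, the block, the test, and channels left out.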

Additional observations from a re-analysis of the deposited data

Results flagged for a closer look

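In 18 of the 182 groups of 4 channels examined (named genes and list medians), 1 channel lay so far from the other 3 that its gap, as a share of the whole range, passed Dixon's limit for 4 values; chance does this in about 1 in 20 groups. In 16 of the 18 it was the lowest channel of its group; 9 of the 18 were on array 1 and 7 on array 4, and the cause was not tested. The 5 genes named for their wide range supply 7 of the 18, and the 2 channels of an array count separately, so the number cannot be set against chance.

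On array 1, the level of Ndufs8 was 0.49 in CTR1 and 0.30 in ONC1, where the other channels of each group lay between 1.70 and 1.85 and between 1.18 and 1.28. Ndufaf6 was at -0.25 in CTR1 and 0.21 in ONC1, with the others between 1.09 and 1.37 and between 1.01 and 1.08. Both genes rest on 1 spot. Sdhc was at 2.63 in CTR1 and 2.82 in ONC1, with the others between 2.83 and 2.87 and between 2.91 and 2.92. CTR1 was also the lowest CTR channel for Ndufb4 at 4.71 (others 4.94 to 4.95), Sdhd at 3.104 (3.28 to 3.30) and Cox4i2 at 3.07 (3.19 to 3.20).

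On array 3, Sdhb was at 2.97 in CTR3 and 2.74 in ONC3, with the others between 3.69 and 3.81 and between 3.69 and 3.74. On array 4, Atp5g3 was at 1.43 in ONC4, with the other ONC channels between 2.40 and 2.49. Slc25a4 was at 3.95 in CTR4 and 4.30 in ONC4, with the others between 5.06 and 5.24 and between 5.44 and 5.61, Adck4 at 1.30 in ONC4 (others 1.62 to 1.67) and Chchd3 at 1.10 in CTR4 (1.34 to 1.38). The 2 channels above their group were ONC4 for Tefm, at -1.67 (others -1.89 to -1.87), and CTR4 for Ndufaf7, at -0.53 (-0.65 to -0.63).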

How the results depend on the processing

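The count of 0 respiratory chain genes called held in all limma alternatives but the array block (5) and median scaling without loess (14, of which 13 were lower and 1 higher in ONC, against 19.6% of all genes, 2267 higher and 927 lower). The alternatives that called 0 of all genes, listed below, could only give 0 here. The test of the methods at p under 0.05 gave 14, and their composite criterion 3. Fold changes of the 85 named genes had 2097 alternative values. Of these, 1978 kept direction and side of the threshold. Another 57 kept direction and passed the threshold where the reported value had not (24 without loess, 21 with the block, 6 with Aquantile). The threshold was lost in 9, all in Isl1 (7 of them with 1 channel left out, 1 with normexp and no filter on dim spots together and 1 with CTR2, CTR4, ONC1 and ONC3 alone). The other sign was found in 53, 49 of them with a value within its standard error. Cox8a without loess is among the 53, although it passed the threshold (adjusted p = 0.048, limma). The cause of each difference below was not tested.

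Median scaling without loess, under which the median of all genes is 0.073, called 3194 genes and 26 of the other mitochondrial genes. The median fold change was then -0.1194 for the respiratory chain genes, -0.1171 for complex I, -0.0801 for II, -0.1719 for III, -0.0079 for IV and -0.1822 for V, and the fold changes with the other sign were Ndufb4 -0.0274, Uqcrh -0.19, Cox6a2 0.24, Atp5j2 -0.12, Ndufv1 -0.20, Ndufv2 -0.11, Cox5a -0.0745, Atp5c1 -0.0356, Cox8a -0.29, Atp5g1 -0.26, Cyc1 -0.0183, Ndufab1 0.14 and Ndufa6 -0.12.

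The software's own processed signals called 21 genes, with medians of 0.079 for complex I and -0.109 for complex III, and with the other sign for Sdha 0.0017, Ndufs7 -0.12, Ndufv1 -0.0444, Cox4i1 0.0595, Atp5c1 -0.004, Ndufa4 0.24, Atp5g2 0.0492, Ndufaf6 0.0267 and Slc25a11 0.0142.

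The number of all genes called was 14 with normexp, 0 with normexp and no filter on dim spots together, 123 with spots well above background only, 412 with Aquantile, 124 with the brightest probe, 1254 with the block, 415 without CTR2 and ONC4, 0 with CTR2, CTR4, ONC1 and ONC3 alone, 2778 by the methods' test, 1 after its adjustment and 536 by the composite criterion. Of the other mitochondrial genes, 1 was called with spots well above background (Gabpa), 5 with Aquantile (Pdhb, Ppargc1b, Gabpa, Gabpb1 and Tefm), 1 with the brightest probe (Sdhaf3), 9 with the block and 2 without CTR2 and ONC4 (Polg and Tefm). Ndufab1 had the other sign with normexp and no filter on dim spots together (0.0066; not with normexp alone), with spots well above background (0.14) and with the brightest probe (0.14). Without CTR2 and ONC4, the other sign was found for Ndufv1 -0.0675, Uqcrc2 0.005, Slc25a13 -0.0024 and Ndufab1 0.0145. With CTR2, CTR4, ONC1 and ONC3 alone, the median of complex I was 0.0022 and the other sign was found for Sdhd -0.0087, Atp5g3 0.0496, Ndufv2 -0.0031, Cox4i1 6e-04, Atp5c1 -0.0599, Cox6a1 0.0404 and Stmn2 -0.12.

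With 1 channel left out, all genes called numbered 0 to 38, the median of the respiratory chain genes was 0.0056 to 0.0386, that of complex V 0.0007 to 0.0848, that of complex II -0.0438 to 0.1092 and that of complex III -0.0269 to 0.0104. The other sign was found without CTR1 for Atp5g1, without CTR2 for Ndufaf6, without CTR3 for Atp5c1 and Ndufaf6, without CTR4 for Atp5g1 and Ndufaf6, without ONC1 for Ndufaf6, without ONC2 for Cox6a1 and Ndufv2, without ONC3 for Ndufa4 and Sdhb and without ONC4 for Atp5g1 and Ndufv1. With 1 channel left out, their fold changes ran from -0.0039 to 0.11 for Atp5c1, from -0.0205 to 0.0398 for Atp5g1, from -0.12 to 0.0145 for Cox6a1, from -0.13 to 0.056 for Ndufa4, from -0.42 to 0.16 for Ndufaf6, from -0.0433 to 0.12 for Ndufv1, from -3e-04 to 0.0932 for Ndufv2 and from -0.29 to 0.15 for Sdhb.

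The other 7 ways to use the spot flags were chosen after seeing the data. They tested 61 to 84 respiratory chain genes and called 77 to 113 genes in all and 0 respiratory chain genes (limma, 14 to 17 at an unadjusted p under 0.05). Median fold changes ran from 0.0122 to 0.0243 for all respiratory chain genes, 0.0083 to 0.0419 for complex I, -0.0076 to -0.0007 for II, -0.0342 to 0.0057 for III, 0.1111 to 0.1514 for IV and 0.0036 to 0.0637 for V. With both background flags or with its population flag alone, 1 of the other mitochondrial genes (Gabpa) was called, and the other sign was found for Ndufv1 -0.0034 and Cox8a -0.0353 with the former and Ndufv1 -0.0032 and Cox8a -0.0352 with the latter. Signal limits few of these genes: 97.5% to 99.6% of their spots were well above background in a channel, and the lowest foreground among the spots kept was 2.18 times the background, in CTR1.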
